A study of Mus musculus with 16 samples.

Results

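The small nucleolar RNA (snoRNA) genes of serum-starved mouse embryonic fibroblasts were followed across 16 RNA-seq libraries. A row of the expression table was taken as a member if its symbol began with Snord, Snora or Scarna followed by a digit and if it reached 1 RPKM, a read count scaled to gene length and library depth, in at least 2 libraries. Of 107 rows with such a symbol, 92 met this rule, among 21671 genes in the table. They were 52 of 64 box C/D genes (Snord), 31 of 34 box H/ACA genes (Snora) and 9 of 9 small Cajal body RNA genes (Scarna). Of the 15 other rows, 14 were listed at 0 in every library and Snord116 had 1 read in 1 library. The 14 were 11 box C/D and 3 box H/ACA rows, among them Snord22, and 10 of them overlapped an exon of another annotated gene, as did 48 of the 92 members.

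All fibroblasts expressed MycER, a Myc protein fused to an estrogen receptor domain that 4-hydroxytamoxifen (OHT, 400 nM) switches on. The libraries labelled YAP2S came from cells that also carried the YAPS127/381A mutant, a form of the transcriptional co-activator YAP without the serines of those positions, and Y27 stands for the ROCK kinase inhibitor Y27632 (50 µM). The 8 groups, each of 2 libraries, were YAP2S OHT Y27, YAP2S OHT, MycER OHT Y27, MycER OHT, YAP2S Y27, YAP2S, MycER Y27 and MycER, where a name without OHT or Y27 means that the compound was not given. The labels do not tell whether replicates came from separate cultures, so p-values measure the spread between these libraries, which may be technical.

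Small nucleolar RNAs guide the chemical modification of other RNAs by base pairing. Box C/D RNAs sit with fibrillarin, which methylates the ribose of the paired nucleotide, and box H/ACA RNAs sit with dyskerin, which turns uridine into pseudouridine. Their main substrate is ribosomal RNA, while Cajal body RNAs guide the same reactions on spliceosomal RNAs. In mammals most are cut out of the introns of host genes and carry no poly(A) tail, and the libraries of this study were made from total RNA without poly(T) selection.

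In the reference annotation 88 of the 92 members lay inside a host gene on the same strand, 70 of them in a protein-coding host and 18 in another host. The genes whose differences are described first are shown here for their boxes, from GENCODE M21 on build GRCm38. Capitals mark the last TGATGA of the first 25 bases, with at most 1 mismatch, and a CTGA in the last 12 bases of box C/D RNAs, and in box H/ACA RNAs an ANANNA in the central stretch and an ACA 3 bases before the end. The first 3 are box C/D RNAs that lie inside Nop56 (Snord110, chr2:130275506-130275573, plus strand) and Wdr43 (Snord53, chr17:71640879-71640956, and Snord92, chr17:71631281-71631365, both plus strand).
Snord110: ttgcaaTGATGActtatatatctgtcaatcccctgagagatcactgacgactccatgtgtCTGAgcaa
Snord53: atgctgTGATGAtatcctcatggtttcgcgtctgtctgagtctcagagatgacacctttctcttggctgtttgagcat
Snord92: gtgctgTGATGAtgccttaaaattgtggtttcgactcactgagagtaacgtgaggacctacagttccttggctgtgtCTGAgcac

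Snord1b (chr11:116674148-116674222, plus strand) and Snord1c (chr11:116672506-116672581, plus strand) share the host 1810032O08Rik and are shown because they are near-identical copies, 97.4% identical over an alignment with 2 differences, so that reads could be shared or lost between them. Values of both are uncertain in that respect.
Snord1b: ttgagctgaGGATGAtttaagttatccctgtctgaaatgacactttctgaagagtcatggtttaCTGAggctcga
Snord1c: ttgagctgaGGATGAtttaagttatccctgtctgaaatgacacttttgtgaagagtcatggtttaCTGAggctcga

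Snora75 (chr1:86351169-86351301, minus strand) is the box H/ACA RNA of the nucleolin gene Ncl. Snora65 (chr2:32963291-32963420, plus strand) and Scarna13 (chr12:105031075-105031349, minus strand) are shown as 2 of the most abundant members, and neither holds an ANANNA in the central stretch searched.
Snora75: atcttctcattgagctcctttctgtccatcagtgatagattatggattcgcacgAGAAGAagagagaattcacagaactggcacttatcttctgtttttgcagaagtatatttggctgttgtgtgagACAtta
Snora65: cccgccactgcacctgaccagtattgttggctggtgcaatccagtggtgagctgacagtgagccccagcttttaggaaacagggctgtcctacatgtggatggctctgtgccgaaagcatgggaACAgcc
Scarna13: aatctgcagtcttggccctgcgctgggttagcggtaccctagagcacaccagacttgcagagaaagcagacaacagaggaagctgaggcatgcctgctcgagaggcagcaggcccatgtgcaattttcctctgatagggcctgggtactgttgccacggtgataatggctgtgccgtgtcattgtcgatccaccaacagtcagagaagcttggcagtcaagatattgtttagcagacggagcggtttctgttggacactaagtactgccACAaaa

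Only the strand of the RNA was searched. A TGATGA with at most 1 mismatch stood in the first 25 bases of 51 of 52 box C/D members (98.1%), against 94 of 98 annotated genes of that class (95.9%), and a CTGA stood in the last 12 bases of 41 members (78.8%), against 85 annotated genes (86.7%). The ACA stood at its place in 26 of 31 box H/ACA members (83.9%), against 33 of 40 annotated genes (82.5%). An ANANNA between 40 and 65% of the length was found in 28 of these members, against 36 annotated genes. The measured genes thus held these letters about as often as their whole class. Of the 9 Cajal body RNAs, 4 held the TGATGA, 5 the CTGA, 6 the ANANNA and 2 the ACA.

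The depth of the libraries, recovered from the steps of the RPKM values, was 9.38 and 10.2 M (mega) reads in YAP2S OHT Y27, 12.59 and 9.83 in YAP2S OHT, 3.63 and 2.62 in MycER OHT Y27 and 15.71 and 13.49 in MycER OHT. It was 13.86 and 15.0 M reads in YAP2S Y27, 14.75 and 13.05 in YAP2S, 6.29 and 10.2 in MycER Y27 and 1.76 and 7.08 in MycER, a range of 8.91-fold. Of the fibroblast genes, Col1a1 (93.3 to 264 RPKM), Vim (98.2 to 487 RPKM) and Pdgfrb (39.8 to 62.1 RPKM) were present in every library, whereas Thy1, a surface marker of many fibroblasts, was at 0 to 0.367 RPKM. Ptprc, Epcam and Pecam1, which define leukocytes, epithelium and endothelium, stayed at or under 0.421 RPKM. Over whole marker lists, 6 of 7 fibroblast genes reached 1 RPKM (summed level 399 to 1246 RPKM), 3 of 5 macrophage genes did (14.2 to 52.1, with Cd68 at 3.81 to 10.7 RPKM), 1 of 4 epithelial genes (Cdh1, up to 1.83 RPKM), 0 of 3 endothelial and 0 of 3 muscle genes, 3 of 4 neural genes (75.3 to 120, mainly Nes and Tubb3) and 2 of 3 adipocyte genes (2.33 to 7.87). Their part in the results was not tested. The population labels went against other genes in the OHT libraries. Bex1 was 0.123 and 0.566 RPKM in YAP2S OHT Y27, 1.01 and 0.47 in YAP2S OHT, 7.64 and 7.49 in MycER OHT Y27 and 19.0 and 19.8 in MycER OHT. Without OHT it was 16.2 and 20.02 RPKM in YAP2S Y27, 16 and 16.1 in YAP2S, 0 and 0.34 in MycER Y27 and 0 and 0.49 in MycER. High Bex1 thus stood with the YAP2S label without OHT and with the MycER label with OHT. Effects of Y27 and of YAP2S within the OHT libraries were therefore not tested, and each single OHT comparison below set libraries of high Bex1 against libraries of low Bex1, so that OHT and the difference Bex1 follows cannot be told apart there. The average over OHT held 4 libraries of high Bex1 on either side.

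The members were short. Annotated lengths had a median of 76.5 bases for box C/D, 133 for box H/ACA and 140 for Cajal body RNAs, while the lengths implied by the RPKM steps had medians of 68, 118 and 118 bases. In 52 members the counted length was under 90% of the annotated length and in 4 it was equal. In 5 rows it was far longer than the RNA, namely Snord123 (6161 bases), Snora30 (5143), Snora43 (1475), Snord93 (1306) and Snora74a (710), so reads of these rows came from more than the snoRNA. The other 87 are called short rows.

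Mean levels over the 16 libraries ran between 2.91 and 111 RPKM, with class medians of 28.6 RPKM for box C/D, 30.7 for box H/ACA and 43.3 for Cajal body RNAs. The highest value of any gene was 119 RPKM in MycER OHT replicate 1 and 663 RPKM in MycER replicate 1, the deepest and the shallowest library. Abundance here means mean RPKM, and how well RNAs of this length were captured was not tested. The most abundant box H/ACA RNAs were Snora65 (111 RPKM), Snora61 (94.0), Snora68 (93.4) and Snora78 (91.0), which in humans guide pseudouridylation of ribosomal RNA. The most abundant box C/D RNAs were Snord104 (109 RPKM), Snord2 (87.5), Snord52 (86.1) and Snord19 (85.3), ribose methylation guides. The most abundant Cajal body RNAs were Scarna13 (108 RPKM), Scarna9 (82.1), Scarna2 (70.9) and Scarna10 (58.6), and in humans Scarna2 and Scarna9 guide modification of the U2 spliceosomal RNA. Neighbours in these orders overlapped in their ranges over libraries, as did Scarna2 (58.3 to 89.2 RPKM) and Scarna10 (38.8 to 85.1 RPKM). Of other genes chosen for their role, Snord47 averaged 67.9 RPKM with OHT and 84.8 RPKM without, and Scarna6 15.9 and 15.7 RPKM.

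**Figure D1:**
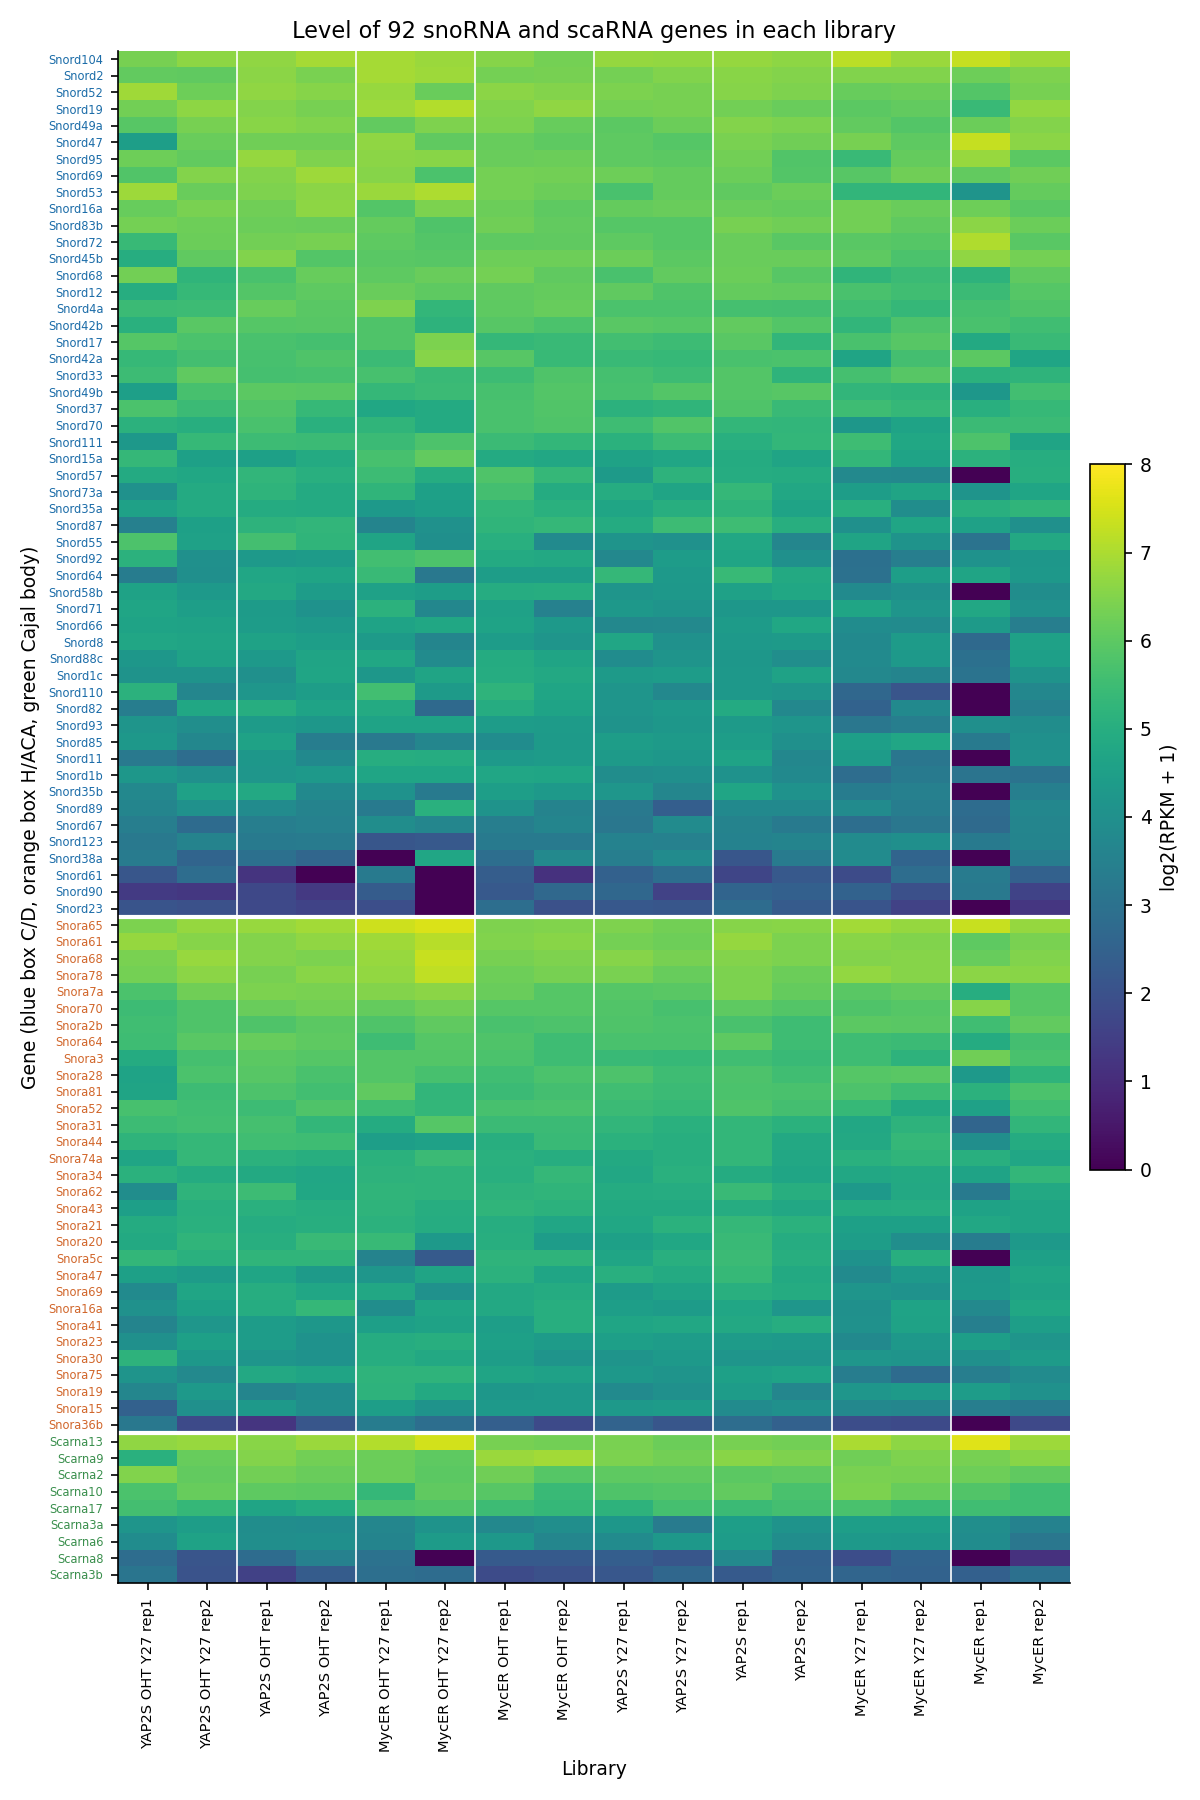
Heat map of log2(RPKM + 1) of the 92 members (rows, by class and mean level) in the 16 libraries (columns, by group), with dark blue at 0 and yellow at 8. The darkest cells in MycER replicate 1 are its 11 members at 0, and the rows of Snora65 and Scarna13 are brightest in the 3 shallow libraries, 2 of MycER OHT Y27 and 1 of MycER.

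As a class the short rows drew a share of the reads that differed far less between libraries than depth did. Together they drew 298 to 414 reads per M reads of the library (RPM) in the 16 libraries, with 125 to 168 for box C/D, 115 to 180 for box H/ACA and 40.5 to 73.1 for Cajal body RNAs. Box C/D rows drew 137 ± 4.72 RPM (SD, n = 2 here and in the rest of this paragraph) in YAP2S OHT Y27, 160 ± 3.20 in YAP2S OHT, 166 ± 3.08 in MycER OHT Y27 and 153 ± 7.47 in MycER OHT. Without OHT they drew 136 ± 1.36 in YAP2S Y27, 147 ± 15.8 in YAP2S, 126 ± 1.72 in MycER Y27 and 133 ± 6.05 in MycER. Each OHT group was thus above the group of the same label without OHT, but under the YAP2S label, with and without Y27, the difference was within the SD of a group. Box H/ACA rows drew 131 ± 21.9, 155 ± 1.81, 172 ± 11.2 and 141 ± 0.941 in the OHT groups in the same order, against 130 ± 4.21, 144 ± 15.6, 131 ± 1.5 and 126 ± 14.8 without OHT. Cajal body rows had no such order, with 50.7 ± 3.07, 48.6 ± 2.98, 63.1 ± 10.1 and 42.9 ± 3.28 in the OHT groups, against 41.7 ± 1.15, 44.2 ± 3.41, 55.5 ± 6.27 and 60.9 ± 17.2 without. Their share was 73.1 in MycER replicate 1 and 70.2 in MycER OHT Y27 replicate 2, the shallowest libraries. It was 40.5 in MycER OHT replicate 2 and 40.9 in YAP2S Y27 replicate 2, which were far deeper. MycER OHT Y27, highest in each class, was a shallow pair, and the part of depth in these shares was not tested. In bulk RNA a smaller number of cells with an RNA and less of the RNA per cell cannot be told apart.

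Read numbers set the precision of each member. The median member had 58 reads in MycER OHT replicate 1 and 4 in MycER replicate 1, and 6 and 73 of the 92 members had fewer than 10 reads there. Reads were present in every library for 79 members, 84 members had a mean of 10 or more reads, and 17 of 1472 values were 0. Of these zeros, 11 fell in MycER replicate 1, 5 in MycER OHT Y27 and 1 in YAP2S OHT. A count of 0 allows up to 3 reads, which in MycER replicate 1 is 28.8 RPKM for Snord110 and 25 RPKM for Snord82, counting error only. The values of MycER replicate 2, 12 RPKM for Snord110 and 10.4 RPKM for Snord82, lie under these floors. For Snord57 and Snora5c, with floors of 27 and 16.8 RPKM, replicate 2 was above them, at 31.4 and 22.4 RPKM.

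**Figure D2:**
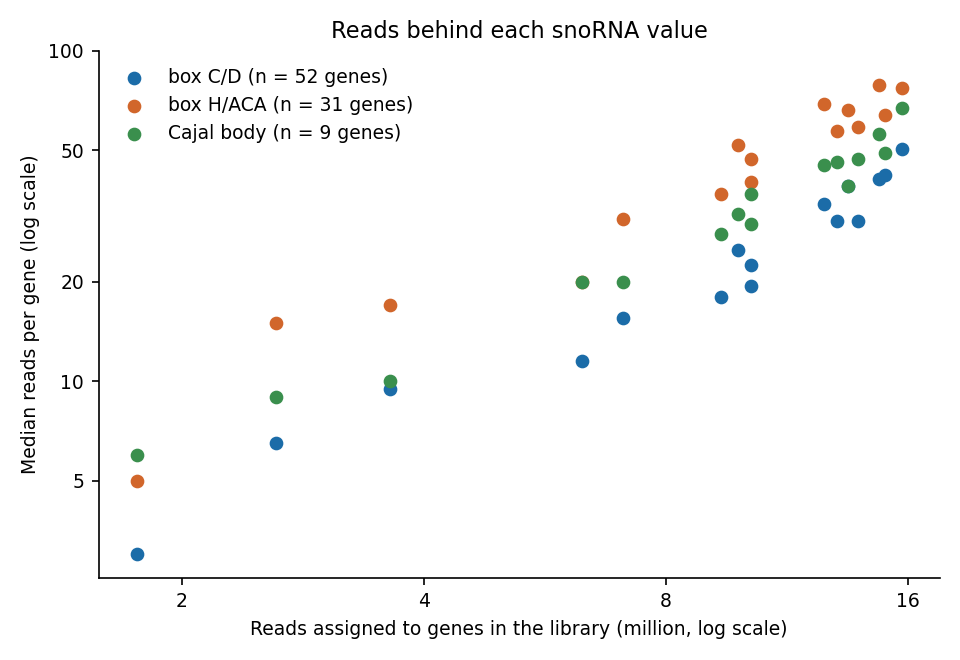
Median reads per gene in each of the 16 libraries (points, coloured by class) against reads assigned to genes, both on log axes. The points rise with depth, and for box C/D RNAs they span 3 reads in MycER replicate 1 to 50.5 in MycER OHT replicate 1.

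The difference between replicates, relative to counting noise, stood under 1 in 5 groups and above it in YAP2S, MycER and, most, YAP2S OHT Y27. The error of these ratios was not estimated, so those near 1 cannot be told from it. Over the short rows with enough reads, the mean squared difference between replicates was 2.63 times the counting noise in YAP2S OHT Y27, 0.802 in YAP2S OHT, 0.885 in MycER OHT Y27 and 0.878 in MycER OHT. It was 0.767 in YAP2S Y27, 1.42 in YAP2S, 0.906 in MycER Y27 and 1.42 in MycER. Other genes with as many reads gave 3.92 in YAP2S OHT Y27 and 1.04 to 1.4 in the other groups, so the pair of YAP2S OHT Y27 stood apart for all genes and not for snoRNAs alone. The YAP2S replicates drew 360 and 311 RPM over the short rows, and their members differed by a median of 0.18 (log2), where all genes differed by 0.02. The spread between replicates fell with reads, and its median was 0.72 (log2 SD) for 8 members under 10 reads, 0.49 for 19 with 10 to 20 reads, 0.34 for 28 with 20 to 40 and 0.25 for 37 with 40 or more. Snord2, whose host Eif4a2 encodes a translation factor, had the lowest spread (0.095), and Snord38a, with a mean of 4.88 reads, the highest (1.56).

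**Figure D3:**
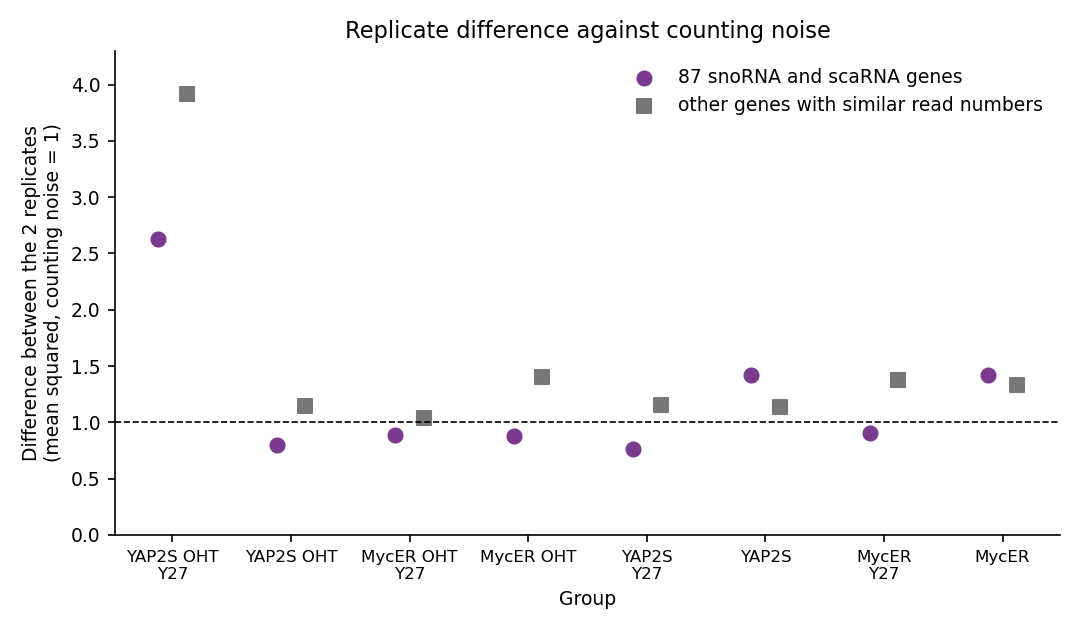
Mean squared difference between the 2 replicates of each group, relative to the counting noise (dashed line at 1), for 81 to 87 of the 87 short rows, those with at least 5 reads in the pair (circles), and for other genes with similar read numbers (squares). YAP2S OHT Y27 lies highest in both, at 2.63 and 3.92, and the circles of the other groups lie between 0.767 and 1.42.

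The highest values had a ceiling. No gene of the table held more than 1.87 reads per counted base in any library, and Scarna9 reached 1.74. Of the short rows, 24 reached at least 1 read per base in some library. In these the mean level of the 3 libraries under 4 M reads over that of the other 13 had a median of 1.14, and it was above 1 in 17 of 24. The median was 0.870 for 32 rows between 0.5 and 1 read per base and 1.085 for 31 rows below. Scarna9 had a ratio of 0.857, on 6 to 11 reads in the shallow libraries. Snora65 was at 159 to 188 RPKM in the 3 shallow libraries and 76.8 to 119 in the other 13, and Scarna13 at 134 to 193 and 72.8 to 125 RPKM. The 3 shallow libraries are the pair of MycER OHT Y27, where depth and group cannot be told apart, and 1 of MycER. Within MycER, replicate 1 (1.76 M reads) held the highest values without OHT of Scarna13 (193 RPKM) and Snora65 (159 RPKM). Replicate 2 (7.08 M reads) was lower in both, but held the highest value without OHT of Scarna9 (94.2 RPKM). The part of depth was not tested.

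The effect of OHT was averaged over the 8 libraries with it against the 8 without. Members were called higher with OHT no more often than all genes. Those with the largest changes lay inside Nop56, Wdr43, Ncl and 1810032O08Rik. Of these, only Snord53 and Snord1b kept their call with only libraries above 4 M reads. Whether the reads of a member came from the mature snoRNA or from host RNA was not tested. At an adjusted p under 0.05 (limma, all 13028 genes tested together, log2 of RPKM + 1), 10 members were higher and 1 lower, 11 of the 92, where 32.3% of all genes were called, 13.0% higher and 19.3% lower. The share called was below that of all genes, while their median standard error, 0.13, was above that of all genes, 0.08. The sign leaned upward, with 68 of 92 members positive (73.9%), against 43.5% of all genes, and the median log2 change was 0.15 for members and -0.04 for all genes. Box H/ACA RNAs were positive in 28 of 31 with 2 called, box C/D in 36 of 52 with 8 called higher and 1 lower, and Cajal body RNAs in 4 of 9 with none called by limma, none at an unadjusted p under 0.05 and, of the 6 examined by voom on recovered reads (Scarna2, Scarna6, Scarna9, Scarna10, Scarna13 and Scarna17), none.

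Snord1b had the smallest adjusted p among the members. It was at 18 and 15.3 RPKM in YAP2S OHT Y27, 17.5 and 18.5 in YAP2S OHT, 25 and 24.8 in MycER OHT Y27 and 25.6 and 25 in MycER OHT. Without OHT it was at 14.1 and 14.7 RPKM in YAP2S Y27, 15.8 and 12.9 in YAP2S, 6.19 and 8.91 in MycER Y27 and 7.36 and 7.34 in MycER. Every OHT library was above 7 of the 8 without OHT, the exception being YAP2S replicate 1, and under the MycER label the values were lowest without OHT and highest with it. Its log2 change was 0.94 ± 0.07 (SE, limma, adjusted p = 5.79e-06), and it was called in all 11 alternatives. The values rested on 5 to 31 reads with OHT and 1 to 18 without, with 1 and 4 in MycER. The SE measures the spread between replicates, and counting error was not added to it. That spread, 0.15 (log2 SD), was the lowest of the 19 members with 10 to 20 reads, whose median was 0.49. The SE and adjusted p of Snord1b may therefore be too small. Snord1c, its near copy, had a log2 change of 0.43 ± 0.15 (adjusted p = 0.0412) and overlapped between the sides.

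Both snoRNAs of Wdr43, a gene of ribosome biogenesis, rose. Snord53 ranged over 70.7, 91.1 and 129 RPKM (lowest, median and highest) with OHT and 16.7, 58.4 and 72.1 RPKM without. Only 1 library without OHT, YAP2S replicate 2, was above the lowest one with OHT, and the log2 change was 0.94 ± 0.22 (adjusted p = 0.00709). Snord92 ranged over 15.2, 27.9 and 53.7 RPKM with OHT and 6.72, 15.5 and 24.8 RPKM without. The sides overlapped for 4 libraries without OHT, and the log2 change was 0.92 ± 0.17 (adjusted p = 0.00149). Wdr43 itself rose by 0.41 (adjusted p = 0.000684).

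The 2 members of Ncl, which encodes the nucleolar protein nucleolin, were Snora75 and Snord82. Snora75 ranged over 12.7, 24.6 and 36.2 RPKM with OHT and 5.92, 15.0 and 23.8 RPKM without, with a log2 change of 0.76 ± 0.10 (adjusted p = 0.000151). The lowest OHT values were those of YAP2S OHT Y27, and 5 libraries without OHT were above the lowest of them. Snord82 had a log2 change of 1.0 (adjusted p = 0.134) and Ncl one of 0.80 (adjusted p = 1.23e-05).

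Nop56 encodes a core protein of box C/D particles and carries Snord110 and Snord57, guides of small-subunit ribosomal RNA in humans. Snord110 was at 34.3 and 11.6 RPKM in YAP2S OHT Y27, 17.5 and 20.7 in YAP2S OHT, 46.7 and 19.4 in MycER OHT Y27 and 35.6 and 25.1 in MycER OHT. Without OHT it was at 17.1 and 12.4 RPKM in YAP2S Y27, 18.4 and 16.9 in YAP2S, 5.39 and 3.32 in MycER Y27 and 0 and 12 in MycER. These values rested on 3 to 33 reads with OHT and 0 to 16 without, and the sides overlapped. The log2 change of 1.55 ± 0.44 (adjusted p = 0.0175) was the highest of the called members and fell to 0.60, not called, with only libraries above 4 M reads, a setting chosen after seeing the data. Snord57 had a log2 change of 1.21 (adjusted p = 0.10), and Nop56 rose by 0.40 (adjusted p = 0.000217).

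Of the other called members, Snord66 ranged over 19.2, 23.7 and 26.3 RPKM with OHT and 9.75, 13.6 and 26.4 RPKM without (log2 change 0.53 ± 0.12, adjusted p = 0.00494). Snora61, one of 3 members in the non-coding host Snhg12, ranged over 88.3, 98.1 and 142 RPKM with OHT and 64.0, 83.7 and 105 RPKM without (0.30 ± 0.08, adjusted p = 0.0109). Snord19, in the nucleostemin gene Gnl3, rose by 0.43 ± 0.15 (adjusted p = 0.0386). Snord93 rose by 0.43 ± 0.06 (adjusted p = 0.000277) and Snord123 fell, at 3.40, 8.70 and 10.8 RPKM with OHT and 8.56, 10.9 and 14.8 RPKM without (-0.57 ± 0.07, adjusted p = 0.000169), but both are rows whose counted length is far beyond the snoRNA. In each of these the ranges overlapped. Of the 11 called members, Snord1b, Snord53, Snord66 and Snord123 kept their call in all 11 alternatives, and with only libraries above 4 M reads, which gave 6 calls (4 higher and 2 lower), the other 7 lost it. With MycER replicate 2 left out, 34 members were called.

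**Figure D4:**
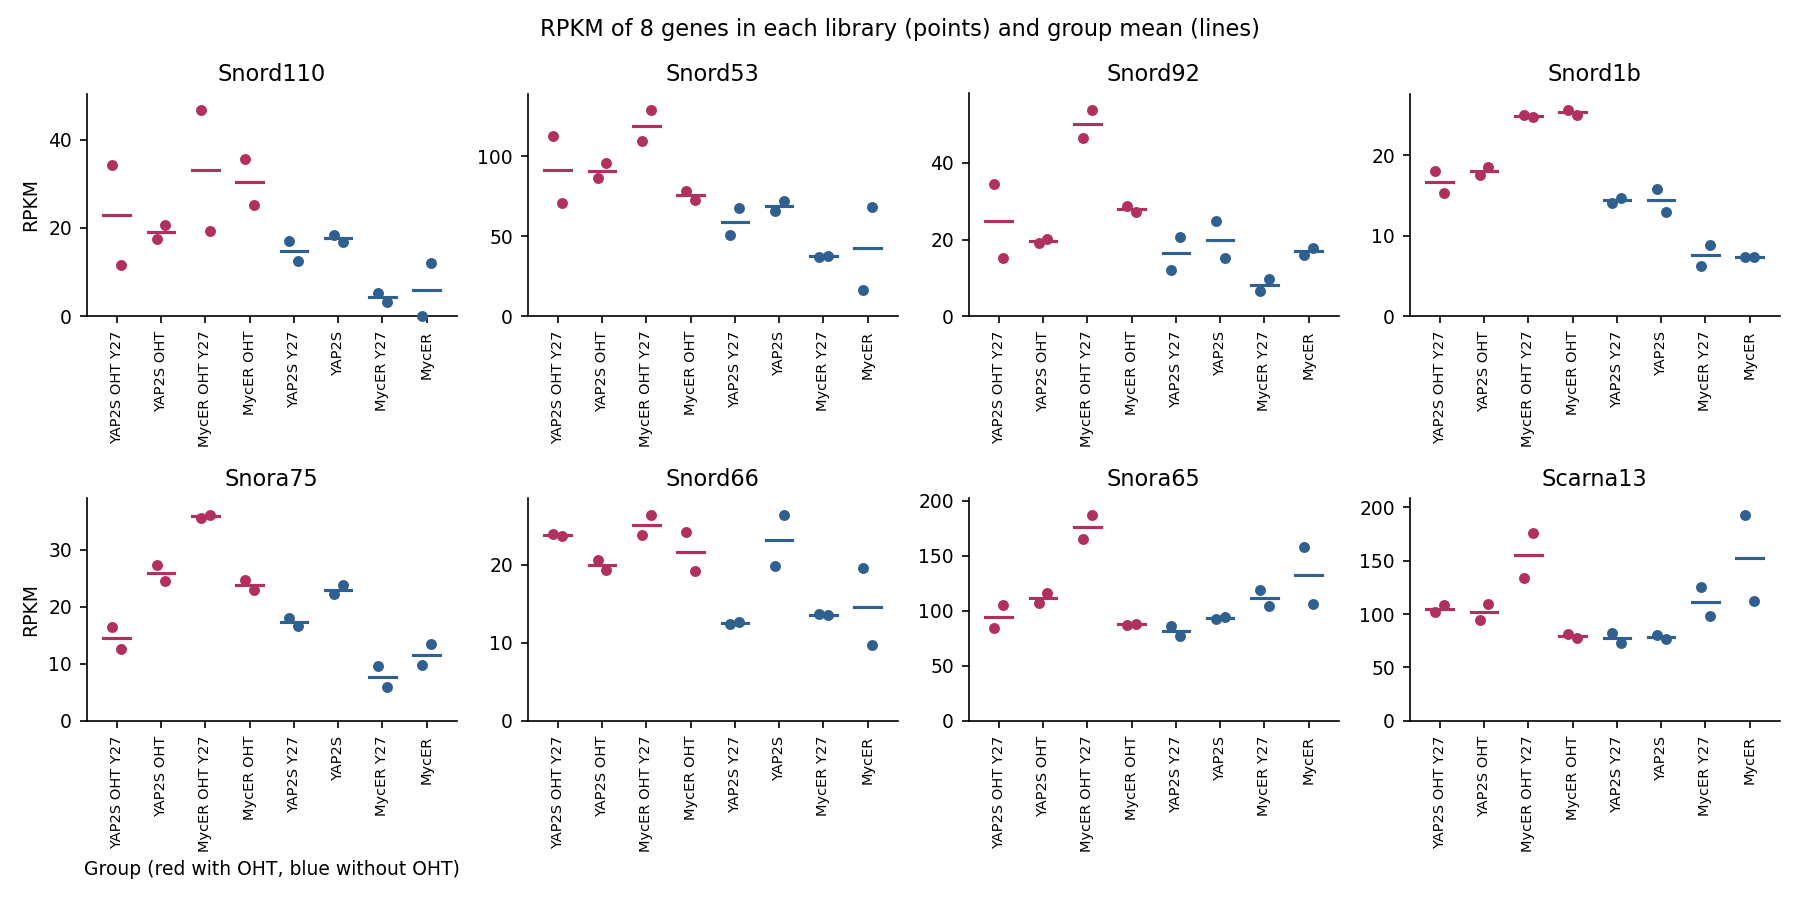
RPKM of 8 members in each library (points) with the group mean (lines), red with OHT and blue without. Snord1b stands at 15.3 to 25.6 RPKM in the OHT groups and 6.19 to 15.8 RPKM in the groups without OHT, while Snora65 and Scarna13 are highest in MycER OHT Y27 and MycER.

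Under the MycER label alone, MycER OHT against MycER, 18 members were higher and 3 lower (22.8% of 92, where 44.9% of all genes were called, 31.6% higher and 13.3% lower). The median log2 change was 0.41 for members and 0.22 for all genes. The highest changes, 2.68 to 3.10, were those of Snord110, Snord57, Snord82, Snord58b, Snora5c and Snord35b, and all 6 were at 0 in MycER replicate 1. Snord57 was at 54.5 and 38.8 RPKM in MycER OHT and 0 and 31.4 RPKM in MycER. Snora5c was at 35.9 and 36.0 RPKM in MycER OHT and 0 and 22.4 RPKM in MycER. With MycER replicate 1 left out, 7 members were called, and with MycER replicate 2 left out, 44. Fitted changes of members at 0 depend on the pseudocount and are no bounds.

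Scarna13, a Cajal body RNA, was at 81.1 and 77.9 RPKM in MycER OHT and 193 and 112 RPKM in MycER (log2 change -0.88 ± 0.22, adjusted p = 0.00798). Snora65 was at 87.4 and 87.9 RPKM in MycER OHT and 159 and 107 RPKM in MycER (-0.56 ± 0.18, adjusted p = 0.0214), and Snord104 at 93.3 and 79.2 RPKM and 155 and 114 RPKM (-0.63 ± 0.18, adjusted p = 0.0148). Both OHT libraries were below both others for each, but MycER replicate 1 was the shallowest library and all 3 turned direction under quantile normalization, to 0.03, 0.33 and 0.26.

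MycER OHT Y27 against MycER Y27 gave 21 members higher and 3 lower (26.1% of 92, where 50.1% of all genes were called, 16.6% higher and 33.5% lower). Here the members leaned the other way from all genes, with medians of 0.31 and -0.16. Snora75 was at 35.6 and 36.2 RPKM in MycER OHT Y27 and 9.59 and 5.92 RPKM in MycER Y27 (2.11 ± 0.19, adjusted p = 5.57e-06). Snord92 was at 46.6 and 53.7 RPKM in MycER OHT Y27 and 6.72 and 9.67 RPKM in MycER Y27 (2.49 ± 0.34, adjusted p = 9.28e-05), and Snord53 at 109 and 129 RPKM and 37.4 and 37.5 RPKM (1.64 ± 0.45, adjusted p = 0.00947). All of these were without overlap. Snord110 rose by 2.57, Snord1b by 1.62 and Snord93 by 1.35. Snord123 (-1.73 ± 0.15, limma, adjusted p = 3.34e-06), Snord85 (-1.17) and Snord37 (-0.59) were lower. Snord37 was at 26.0 and 28.8 RPKM in MycER OHT Y27 and 45 and 38.8 RPKM in MycER Y27, on 5 and 4 reads against 15 and 21. Snord85 rested on 2 and 2 reads against 9 and 17. With either MycER Y27 replicate left out 12 members were called. The libraries of MycER OHT Y27 held 3.63 and 2.62 M reads.

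Under the YAP2S label few members were called, and the count depended on the fit. YAP2S OHT against YAP2S gave 0 higher and 1 lower (1.09%, where 13.8% of all genes were called, 5.76% higher and 8.01% lower), 3 members had an unadjusted p under 0.05, and voom called 0. A fit of the libraries of this comparison alone called 28 members (17 higher and 11 lower) and library weights 21 (13 higher and 8 lower). The 1 lower member in the fit over all libraries was Scarna17, a Cajal body RNA, at 24.3 and 29.5 RPKM in YAP2S OHT and 42.6 and 48.2 RPKM in YAP2S (-0.74 ± 0.16, adjusted p = 0.0108). YAP2S OHT Y27 against YAP2S Y27 gave 1 higher and 2 lower (3.26%, where 15.0% of all genes were called, 5% higher and 10.0% lower). Snord66 was at 23.9 and 23.7 RPKM in YAP2S OHT Y27 and 12.4 and 12.6 RPKM in YAP2S Y27 (0.87 ± 0.23, adjusted p = 0.0266). Snord12 was at 30.7 and 40.1 RPKM in YAP2S OHT Y27 and 65.6 and 54.5 RPKM in YAP2S Y27 (-0.75 ± 0.16, adjusted p = 0.00739), and Snord87 at 10.1 and 22.5 RPKM and 29.2 and 44.1 RPKM (-1.19 ± 0.35, adjusted p = 0.0388). Each was without overlap, and the replicates of YAP2S OHT Y27 were the pair that differed beyond counting. With replicate 1 of that group left out 0 members were called, and with replicate 2 left out 14.

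**Figure D5:**
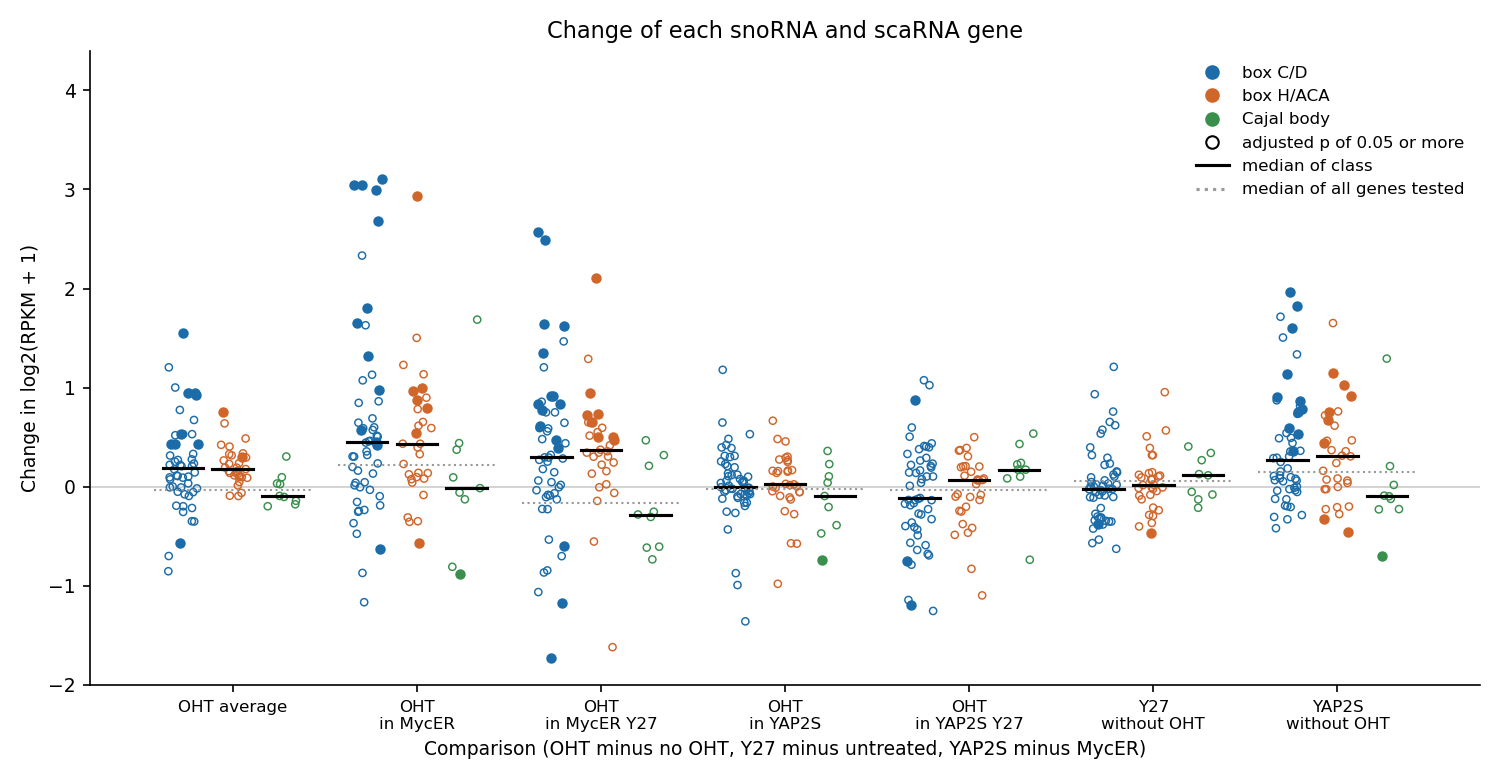
Change in log2(RPKM + 1) of each member (points, filled where the adjusted p was under 0.05) in 7 comparisons, by class, with the median of the class (solid line) and of all genes tested (dotted line). Box H/ACA RNAs lie mostly above 0 in the OHT average (28 of 31), and Cajal body RNAs on both sides (4 of 9 above).

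Without OHT the Y27 libraries, averaged over both populations, gave 0 members higher and 2 lower (2.17%, where 14.6% of all genes were called, 10.1% higher and 4.51% lower). Snora75 was at 18 and 16.7 RPKM in YAP2S Y27 and 9.59 and 5.92 RPKM in MycER Y27, against 22.2 and 23.8 RPKM in YAP2S and 9.77 and 13.4 RPKM in MycER. It was lower with Y27 within either population, by 0.46 ± 0.14 on average (log2 change -0.46, limma, adjusted p = 0.0405). In MycER cells this rested on 7 and 7 reads with Y27 and 2 and 11 without, and 9.59 RPKM stood beside 9.77. The ranges of the sides overlapped because the populations differed. Snord93, a long row, fell by 0.37 (adjusted p = 0.0123). The members had 12 of 92 at an unadjusted p under 0.05 and a median log2 change of -0.00, against 0.06 for all genes. With MycER replicate 2 left out 25 members were called, and with YAP2S replicate 1 or YAP2S Y27 replicate 1 left out 0.

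Between the YAP2S and MycER populations without OHT, 17 members were higher in YAP2S and 3 lower (21.7%, where 42.9% of all genes were called, 30.0% higher and 13.0% lower). Snora75 was at 18 and 16.7 RPKM in YAP2S Y27 and 22.2 and 23.8 RPKM in YAP2S, against 9.59 and 5.92 RPKM in MycER Y27 and 9.77 and 13.4 RPKM in MycER (1.02 ± 0.14, adjusted p = 0.000251). Snord1b, with the values above, had a log2 change of 0.87 ± 0.11 (adjusted p = 0.000131), and both were higher in every YAP2S library. Snord110 (1.97), Snord82 (1.82) and Snord35b (1.60) had the highest changes among called members and were at 0 in MycER replicate 1. Snora20 was at 22.5 and 26.2 RPKM in YAP2S Y27 and 42.2 and 30.1 RPKM in YAP2S, against 20.9 and 14.5 RPKM in MycER Y27 and 9.29 and 18.5 RPKM in MycER (0.92 ± 0.26, adjusted p = 0.0153). Snord87 had a log2 change of 0.90 (adjusted p = 0.0122). Scarna13 (-0.70, adjusted p = 0.00454), Snora65 (-0.46, adjusted p = 0.0115) and Snora78 (-0.33, adjusted p = 0.0498) were lower, and these 3 abundant members had their highest values in MycER replicate 1 or MycER Y27, whose libraries were shallower. Under quantile normalization Snora65 (0.19) and Snora78 (0.16) turned direction and Scarna13 was at -0.08 (not called), and voom called 9 members, or 6 (4 higher and 2 lower) on reads corrected for duplicates, a setting chosen after seeing the data. The MycER libraries of this comparison are also those of the OHT comparisons, so their chance errors are shared. The count of called members was 10 with YAP2S replicate 1 left out and 43 with MycER replicate 2 left out.

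Whether Y27 acted differently with YAP2S was tested without OHT. The member Snord70, inside Nop58, was the 1 called (1.09% of members, where 0.568% of all genes were called, 0.361% higher and 0.207% lower). It was at 44.9 and 55.4 RPKM in YAP2S Y27 and 38.4 and 37.6 RPKM in YAP2S, against 18 and 24.0 RPKM in MycER Y27 and 42.8 and 42.7 RPKM in MycER. These values rested on 33 and 44, 30 and 26, 6 and 13, and 4 and 16 reads in the same order. On them Snord70 was higher with Y27 in YAP2S cells and lower with it in MycER cells, without overlap in either. Its changes differed by 1.39 (limma, adjusted p = 0.0481). It was called in 3 of 12 alternatives, and with MycER replicate 2 left out 19 members were called.

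Genes that build or house snoRNAs were counted in the same fits. In the OHT average, where 13.0% of all genes were higher and 19.3% lower, box C/D proteins had 2 of 4 higher (Nop56 0.40, Nop58 0.30) and box H/ACA proteins 3 of 4 (Nhp2 0.37, Gar1 0.36, Dkc1, which encodes dyskerin, 0.25), with none lower. Assembly factors had 9 of 12 higher, among them Shq1 (1.05), a chaperone of dyskerin, Naf1 (0.82), which binds dyskerin during assembly, Tcof1 (0.55), a nucleolar scaffold, and Tgs1 (0.54), a cap methylase. Cajal body factors had 1 of 9 higher, Gemin5 (0.58), while Coil, the coilin gene, had a log2 change of 0.09 (adjusted p = 0.465). Of 62 host genes tested 11 were higher and 3 lower, of the 36 protein-coding hosts listed 7 and 1, and of 13 non-coding hosts 0 and 1. Among other short RNAs, 14 of 282 microRNA rows were higher and 11 lower, and 1 of 8 other small RNAs was higher. Between YAP2S and MycER without OHT, where 30.0% of all genes were higher and 13.0% lower, 8 of 62 hosts were higher and 32 lower with a median log2 change of -0.27 and 29.0% positive. Ribosomal protein genes were among the lower hosts, such as Rpl10 (-0.99) and Rps2 (-0.98). The highest RPKM of any gene was 119 to 137 in these YAP2S libraries and 163 to 663 in the shallower MycER ones. The part of depth in the host changes was not tested. The members had 17 higher and 3 lower with a median of 0.20 and 68.5% positive, beside 0.15 and 65.8% for all genes, and the difference between members and hosts was not tested. Nop56 had a log2 change of -0.23 (adjusted p = 0.0266) where Snord110 had 1.97. Coil was higher by 1.04 (adjusted p = 0.000105), with 4 of 9 Cajal body factors higher, 7 of 12 assembly factors higher, 1 of 4 box H/ACA proteins higher, and 1 of 4 box C/D proteins higher and 2 lower.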

How the data were processed

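Libraries were made from total RNA with a TruSeq kit without poly(T) selection. The submitters' processing notes name TopHat, TopHat2 2.0.8, SAMtools, featureCounts 1.4.5-p1 and build mm9. The annotation, the strand setting and whether duplicate reads were removed are not given in the sources used here. The authors deposited RPKM values for 21671 genes, a unit inferred from the values. Each gene's values were whole multiples of 1 step per library, from which reads were recovered (346736 of 346736 values, 100.0%, within 0.01 of a whole number). The depth of each library and the counted lengths also came from these steps. Annotated lengths, hosts and sequences rest on GENCODE M21 (GRCm38), matched by symbol, and no coordinates of the deposited files were used.

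Planned count tests were not the main test, since the unit was RPKM. Values were set to log2(RPKM + 1), which understates changes of low genes, genes at 1 RPKM in at least 2 libraries were kept, and all 16 libraries were fitted in limma 3.58.1 (R 4.3.3) with 1 coefficient per group and a mean-variance trend. Tests were two-sided, with Benjamini-Hochberg adjustment over 13028 genes in each of 8 comparisons. Genes were named by level (the 4 highest per class), by change (up to 6 highest and 6 lowest called members per comparison with a mean of 10 or more reads), by role and by spread, and others were named after their values were seen. Others fixed by role, such as Snord118 and Snora73a, were not analysed here. Members, lists and rules were chosen with earlier results of these data known. Alternatives were pseudocounts of 0.1 and 10, filters, quantile normalization, a fit without the trend, a replicate block, fewer libraries, library weights and voom on recovered reads. Other scripts used Python 3.11.15, numpy 2.4.6, pandas 2.3.3 and matplotlib 3.10.9, and the test was tested on simulated data.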

Additional observations from a re-analysis of the deposited data

Results flagged for a closer look

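Each of the following members had, on the values as deposited, opposite directions in separate groups under the same contrast. Snord70 differed between the populations in its change with Y27 by 1.39 on the log2 scale without OHT, a difference that was itself tested (limma, adjusted p = 0.0481). Its values there rested on 4 to 44 reads. The other differences were not tested, and the population labels of the OHT libraries went against Bex1. Snora65 had a change with OHT of -0.56 in MycER OHT against MycER and 0.66 in MycER OHT Y27 against MycER Y27, a difference of -1.22, with the shallowest libraries on opposite sides of the contrast, but under quantile normalization the -0.56 became 0.33 and both were positive. Snord37 had changes of 0.57 and -0.59 in the same contrasts, a difference of 1.17. It had 3 reads in MycER replicate 1 and 5 and 4 in MycER OHT Y27. Snord12 had changes of 0.42 in MycER OHT against MycER and 0.47 with Y27, but -0.75 in YAP2S OHT Y27 against YAP2S Y27, differences of 1.17 and 1.22. Snord87 had 0.98 in MycER OHT against MycER and -1.19 in YAP2S OHT Y27 against YAP2S Y27, a difference of 2.18.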

How the results depend on the processing

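Of 8880 values of 40 named members under the alternatives, 8308 kept their direction and side of the test, 372 lost a call, 190 gained one and 10 reversed. Quantile normalization moved the median of all genes to -0.02 in MycER OHT against MycER (0.22 as deposited), to 0.01 with Y27 (-0.16) and to -0.02 in YAP2S against MycER without OHT (0.15). Under it Scarna13 (0.026), Snora65 (0.33), Snord104 (0.26) and Snord2 (0.56) reversed in MycER OHT against MycER, and Snora65 (0.19), Snora78 (0.16) and Snord104 (0.40) in YAP2S against MycER. For Y27 without OHT, Snord57 reversed without MycER replicate 1 and with only libraries above 4 M reads (-0.72 in both), and Snord53 without MycER replicate 2 (0.45). Over the libraries left out, Snord57 ranged between -0.72 and 1.79 and Snord53 between -0.54 and 0.45. The causes were not tested. The correction for duplicates and the restriction to deep libraries were chosen after seeing the data.

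Counts of called members moved as follows. The OHT average, 11 calls, gave 6 in deep libraries (4 higher and 2 lower). MycER OHT against MycER, 21 calls, gave 3 from its own libraries, 7 by voom, 7 by voom corrected for duplicates (4 higher and 3 lower) and 8 in deep libraries, and with Y27, 24 calls, 13 by voom. YAP2S OHT against YAP2S, 1 call, gave 28 from its own libraries, 21 with library weights, 0 by voom, and 2 each by quantile normalization, corrected voom and deep libraries. With Y27, 3 calls, it gave 5 at a pseudocount of 10, 7 by quantile normalization, 1 with library weights, 5 by corrected voom and 10 in deep libraries. Y27 without OHT, 2 calls, gave 1 without a filter and by voom, and 5 by quantile normalization and in deep libraries. YAP2S without OHT, 20 calls, gave 9 by voom and 6 by corrected voom (4 higher and 2 lower). The 1 call of the interaction was lost, leaving 0, at a pseudocount of 0.1, without a filter, without the trend and from its own libraries. This call was also lost, leaving 0, with library weights, with the replicate block, by voom and by corrected voom.

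Leaving out 1 library gave 9 to 34 calls in the OHT average (34 without MycER replicate 2), 6 to 44 in MycER OHT against MycER (44 without MycER replicate 2), 12 to 39 with Y27 (39 without either MycER replicate), 0 to 2 in YAP2S OHT against YAP2S, 0 to 14 with Y27 (14 without YAP2S OHT Y27 replicate 2), 0 to 25 for Y27 without OHT (25 without MycER replicate 2), 10 to 43 for YAP2S without OHT (43 without MycER replicate 2) and 0 to 19 for the interaction (19 without MycER replicate 2). A group left with 1 library was assumed to vary like the others. The main fit did not treat replicate numbers as pairing the samples. Over 28 pairs of groups the correlation of deviations ran between -0.33 and 0.43, with 8 over 0.1. As each group gave 1 difference between replicates, this cannot exclude pairing. With the replicate block the calls were 11, 22, 24, 1, 4, 3, 18 and 0 in the 8 comparisons in the order above. Other member rules gave 92 rows (5 RPKM in 2 libraries), 93 (any value) and 84 (a mean of 10 reads).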
